A study of Rattus norvegicus with 13 samples.

Results

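The genes described here are 10 markers of macrophages and other leukocytes in adenovirus-treated rat islets, taken with every array probe that carries one of their names, current or older, and has a value. They matched 10 probes for 8 genes, of 12761 genes that the array's probes name, on 26962 probes that are not control spots. Ptprc and Mrc1 have 2 probes each, and Cd14, Csf1r, Tyrobp, Aif1, C1qa and C1qb have 1 each. No probe bore the name of Cd68 or Itgam, so these 2 genes have no expression values here.

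Islets came from male Sprague-Dawley rats of about 250 g, whose age is not given, and were exposed to virus for 18 h and cultured for 60 h more in medium with 8 mM glucose and 10% fetal calf serum. The control virus, AdCMV-bGAL, made the enzyme beta-galactosidase (bGAL, 5 arrays). AdCMV-Nkx6.1 carried hamster Nkx6.1 (5 arrays) and AdCMV-Pdx1 carried mouse Pdx1 (3 arrays), both homeobox factors of beta cells. Each array compared pooled islet RNA of 1 independent islet isolation, labelled with Cy5, with a commercial pool of rat reference RNA, labelled with Cy3. All 13 arrays are therefore of islets that met an adenovirus, and no group without virus enters. As the name AdCMV says, the cytomegalovirus promoter drove each transgene, and no cell type is given for it.

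Islets hold a small population of resident macrophages beside the hormone cells and vessels. Macrophages live on signals through the receptor encoded by Csf1r, take up debris and microbial products through receptors such as those of Cd14 and Mrc1, and secrete C1q, the first component of the classical complement cascade. Ptprc encodes CD45, a phosphatase on the surface of nucleated blood cells, so it marks leukocytes of every kind. In whole islets, fewer cells of a type and less RNA per cell cannot be told apart.

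Values are log2 ratios of islet over reference signal, so 0 means equal signal. A ratio also depends on how much of a transcript the reference holds, so ratios of different genes, or of 2 probes of a gene, are not ranked against each other. The islet hormone Ins1 lay between 3.48 and 7.49 on the 13 arrays and the liver protein gene Alb between -5.44 and -3.70 on its 2 probes. The rat Nkx6-1 probe ran from 2.31 to 4.14 and differed by -0.54 between Nkx6.1 and bGAL (limma adjusted p = 0.417), and 0 probes carried the name Pdx1, so the array does not check the transgenes, which are from other species.

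The arrays fell into sets by their empty values, a split that follows neither the labels nor, fully, the groups. On bGAL 1, 2, 3 and 5 and Nkx6.1 1, between 35.4% and 61.1% of probes had no value. On the other 8 arrays, which hold bGAL 4, Nkx6.1 2 to 5 and all of Pdx1, the share was 0.23% to 15.5%. Over the 9241 probes with a value everywhere, log2 ratios spread with an SD of 1.78 to 1.90 on arrays of the first set, against 1.43 to 1.501 on those of the second without Nkx6.1 2. That array stood apart from the rest, with correlations across probes of 0.557 to 0.725 against 0.821 to 0.971 among the others. The marker differences from bGAL are therefore given also from a fit with a term for the array set, called the set-blocked fit, and in some cases within the 8 arrays with few empty values, where bGAL has 1 array. For C1qb and, further below, Lbp, Lst1 and RT1-Db1, the set-blocked difference from bGAL equals that within the 8 arrays. For these genes it therefore rests on bGAL 4 alone. For a probe with a value on Nkx6.1 1, it also draws on that array, the only array outside bGAL with many empty values.

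Of the 10 marker probes, 2 lay above the reference on every array with a value, 6 lay below it on every such array, and 2 had values on both sides of 0. Among all 17965 probes tested, 14.1% lay above on every array with a value and 23.4% below. The probes above the reference were those of C1qa and C1qb, which encode the A and B chains of C1q. The 2 genes lie 9258 bases apart on chromosome 5 of the rat assembly GRCr8, C1qb at chr5:154402276-154407827 and C1qa at chr5:154417086-154419933. Their RefSeq promoters (GRCr8, minus strand, 250 bases before to 50 after the start) are shown because this pair carried the high values, with that of Ptprc as a member far below the reference. Capitals mark GGAAGT and its reverse complement, the core that the ETS family of factors, PU.1 of myeloid cells among them, can bind.
C1qa, chr5:154419884-154420183: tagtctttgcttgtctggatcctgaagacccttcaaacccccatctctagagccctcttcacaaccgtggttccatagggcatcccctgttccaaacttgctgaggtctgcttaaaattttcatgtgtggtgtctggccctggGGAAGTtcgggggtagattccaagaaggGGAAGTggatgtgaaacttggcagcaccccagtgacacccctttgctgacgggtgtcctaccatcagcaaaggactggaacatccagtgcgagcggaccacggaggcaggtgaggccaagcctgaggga
C1qb, chr5:154407778-154408077: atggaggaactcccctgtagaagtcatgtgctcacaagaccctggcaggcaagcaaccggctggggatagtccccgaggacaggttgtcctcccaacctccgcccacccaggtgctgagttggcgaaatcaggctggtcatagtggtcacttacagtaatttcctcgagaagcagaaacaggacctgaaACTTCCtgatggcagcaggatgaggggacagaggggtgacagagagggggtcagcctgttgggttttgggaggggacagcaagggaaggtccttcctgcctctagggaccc
Ptprc, chr13:52259697-52259996: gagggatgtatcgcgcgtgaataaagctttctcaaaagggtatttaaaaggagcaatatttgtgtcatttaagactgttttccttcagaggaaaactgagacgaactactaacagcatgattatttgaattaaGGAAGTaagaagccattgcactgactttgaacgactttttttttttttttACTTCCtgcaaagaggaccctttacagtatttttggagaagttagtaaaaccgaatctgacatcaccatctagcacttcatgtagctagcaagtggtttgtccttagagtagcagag

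Searched on both strands, GGAAGT occurred in 5 of the 8 member promoters in the table (Ptprc, Cd68, C1qa, C1qb and Mrc1) and in 22.6% of all 33469 promoters of the same length. C1qa held it 107 and 79 bases before the start, counted at the motif's leftmost base, and C1qb 61 bases before it. The motif TATAAA occurred in 0 of the 8 and in 14.2% of all. These matches are a description of the letters and not binding sites.

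C1qa was the marker with the largest spread between arrays. Under bGAL its log2 ratio was 8.03, 5.27, 5.07, 2.88 and 3.09 on arrays 1 to 5, under Nkx6.1 it was 5.97, 2.78, 2.35, 2.33 and 2.35, and under Pdx1 it was 2.43, 2.89 and 2.62. The highest bGAL arrays and Nkx6.1 1 stood far above all others, and each pair of groups overlapped. The group means were 4.87 ± 2.08 for bGAL (SD, n = 5), 3.16 ± 1.59 for Nkx6.1 (n = 5) and 2.65 ± 0.230 for Pdx1 (n = 3). All 5 arrays with many empty values lay at 3.09 or higher and all 8 with few at 2.89 or lower. Within those 8 arrays C1qa stood at 2.88 on bGAL 4, at 2.33 to 2.78 on Nkx6.1 2 to 5 and at 2.43 to 2.89 on the Pdx1 arrays.

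C1qb gave values on 12 arrays. It stood at 3.28, 3.45, 3.23, 2.29 and 3.61 on bGAL 1 to 5, was empty on Nkx6.1 1 and stood at 3.22, 1.34, 1.64 and 1.62 on Nkx6.1 2 to 5, and at 1.72, 2.06 and 1.56 on Pdx1 1 to 3. Every bGAL array lay above every Pdx1 array, while Nkx6.1 2 reached into the bGAL range. The arrays with many empty values lay at 3.23 to 3.61, and those with few at 1.34 to 3.22, of which Nkx6.1 2 is the highest. Without Nkx6.1 2, bGAL 4 was the highest of the arrays with few empty values.

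Tyrobp encodes DAP12, a membrane adaptor that passes on signals from activating receptors of myeloid and NK cells. Its log2 ratio on bGAL 1 to 5 was -0.14, -0.14, -0.00327, -0.39 and -0.000816. On Nkx6.1 1 to 5 it was -0.09, -1.21, -1.51, -0.99 and -1.07, and on Pdx1 1 to 3 it was -0.93, -1.08 and -1.37. All Pdx1 arrays and 4 of 5 Nkx6.1 arrays lay below all bGAL arrays, and the exception was Nkx6.1 1. The values again followed the array set: -0.14 to -0.000816 where many probes were empty and -1.51 to -0.39 where few were. For 2 of the 5 bGAL values the ratio was within 0.01 of 0. Whether such values reflect signal was not tested, so the size of a difference from them is uncertain. With values within 0.01 of 0 set to missing, Tyrobp differed by -0.75 between Nkx6.1 and bGAL (limma adjusted p = 0.272).

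Csf1r encodes the receptor for the macrophage growth factors Csf1 and Il34. It was empty on bGAL 1 and 3 and stood at -0.04, -0.86 and -0.41 on bGAL 2, 4 and 5. It stood at -0.00562, -1.83, -1.31, -1.37 and -1.07 on Nkx6.1 1 to 5, and at -0.55, -0.65 and -0.67 on Pdx1 1 to 3. The 3 values above -0.5 were all from arrays with many empty values, 1 of them within 0.01 of 0. Among the arrays with few empty values, the 4 Nkx6.1 arrays were the lowest, then bGAL 4, then the 3 Pdx1 arrays.

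Ptprc lay below the reference on all 13 arrays with both probes. The first probe, R001662_01, ran from -3.61 to -1.25 under bGAL, from -4.49 to -0.22 under Nkx6.1 and from -4.02 to -2.16 under Pdx1. The second, Rn30000541, ran from -4.90 to -2.28, from -4.55 to -2.40 and from -3.72 to -2.99 in the same order. On both, bGAL 2 was among the lowest bGAL arrays and Nkx6.1 1 was the highest Nkx6.1 array, and the 3 groups overlapped.

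Cd14, the co-receptor that hands bacterial lipopolysaccharide to Tlr4, lay below the reference throughout. Its values ran from -1.46 to -0.86 under bGAL, from -2.72 (Nkx6.1 1) to -0.87 under Nkx6.1 and from -1.73 to -1.06 under Pdx1. It varied least between arrays of the 5 genes with a value on every array (SD 0.494 over the 13 arrays, against 1.81 for C1qa), and its groups overlapped.

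Mrc1 encodes the mannose receptor CD206 of tissue macrophages, and its 2 probes differed in sign against the reference. The first, Rn30016785, lay below the reference on all 13 arrays, at -3.33 to -2.46 under bGAL, -5.19 to -0.72 under Nkx6.1 and -2.73 to -2.03 under Pdx1. The second, Rn30024310, lay near or above it, at -0.19 to 1.57 on 4 bGAL arrays, 0.04 to 1.38 under Nkx6.1 and -0.12 to 0.43 under Pdx1. Nkx6.1 1 held the lowest value of the first probe and the second highest of the other.

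Aif1, which encodes the calcium-binding protein Iba1 used to stain macrophages and microglia, had values on the 8 arrays with few empty values only. It stood at -0.46 on bGAL 4, at 0.44, -0.00921, -0.02 and -0.10 on Nkx6.1 2 to 5, and at -0.03, -0.03 and -0.64 on Pdx1 1 to 3. With 1 bGAL value it did not enter the tests over all arrays.

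**Figure D1:**
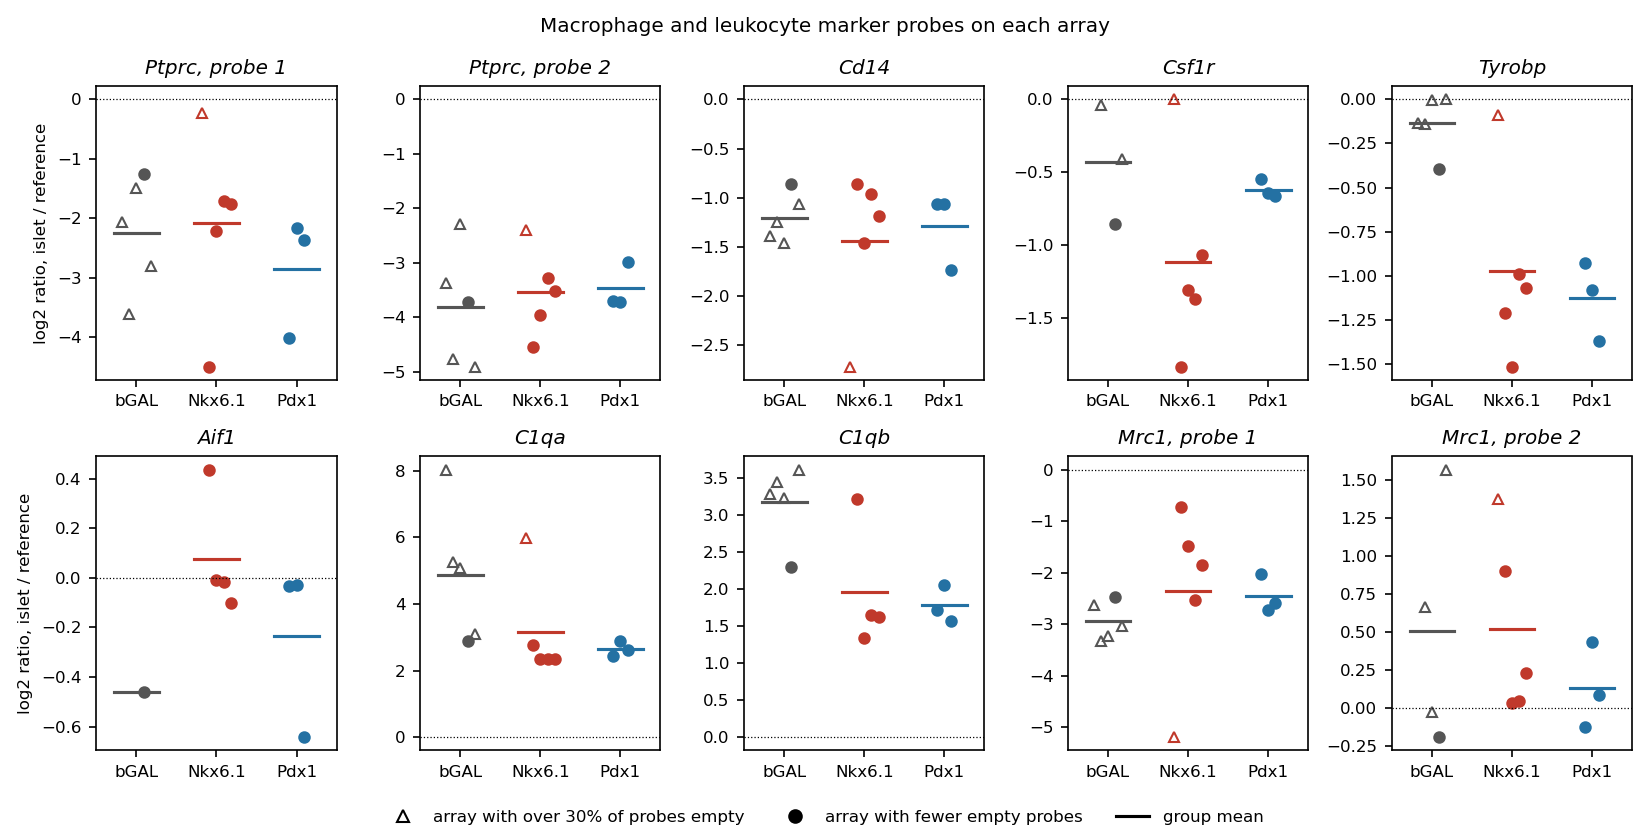
Log2 ratio of islet over reference RNA for each of the 10 marker probes, one panel per probe with its own vertical scale, for bGAL (grey), Nkx6.1 (red) and Pdx1 (blue). Open triangles are arrays with over 30% of probes empty, filled circles are the others, and lines are group means; for C1qa and Tyrobp all triangles lie above all circles.

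Between Nkx6.1 and bGAL, C1qb and Tyrobp had the lowest p values of the markers, and neither passed the test. Limma, fitted over all probes with Benjamini-Hochberg adjustment, called 0 of 9 at an adjusted p under 0.05, against 0.64% of all probes, and 2 of 9 had an unadjusted p under 0.05, against 14.4%. Both of these probes had the lower mean under Nkx6.1. C1qb differed by -1.22 (SE 0.386, limma adjusted p = 0.190), with 3 of 4 Nkx6.1 arrays below all bGAL arrays. In the set-blocked fit it differed by -0.34, an estimate that rests on bGAL 4 alone. Without Nkx6.1 2 the C1qb difference was -1.64 and passed (limma adjusted p = 0.0214); over all alternatives its adjusted p ran from 0.00376, with array weights, to 0.990. Over all 7 marker genes tested the median difference was -0.68, against -0.08 over all probes. It was -0.34 in the set-blocked fit, and over 8 genes on the arrays with few empty values it was -0.39.

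Tyrobp differed by -0.84 between Nkx6.1 and bGAL (SE 0.247, limma adjusted p = 0.158). Its blocked difference was -0.41 (adjusted p = 0.955), and within the arrays with few empty values it was -0.80, from 4 Nkx6.1 arrays and bGAL 4. Among the arrays with many empty values, Nkx6.1 1 differed from the 4 bGAL arrays by -0.02. Without Nkx6.1 1, the 1 Nkx6.1 array of that set, the difference was -1.06 and passed (limma adjusted p = 0.0379, against 0.0243 to 0.998 over all alternatives). C1qa differed by -1.71 (SE 0.926, adjusted p = 0.408, 95% interval -3.71 to 0.29), by 0.09 in the set-blocked fit and by -0.92 without bGAL 1. Csf1r differed by -0.68 (adjusted p = 0.415), and by -0.19 with the block.

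The other 5 probes differed by less than 0.6 between Nkx6.1 and bGAL over all arrays, with wide intervals. Ptprc differed by 0.17 (95% interval -1.34 to 1.67) and 0.26 (-0.82 to 1.34) on its 2 probes, Cd14 by -0.24 (-0.94 to 0.46), and Mrc1 by 0.58 (-0.79 to 1.95) and 0.02 (-0.84 to 0.87). Their limma adjusted p values lay between 0.682 and 0.989, and all 5 intervals held 0. In the set-blocked fit Cd14 lay further from 0, at -0.84 (SE 0.304, unadjusted p = 0.0163, limma adjusted p = 0.630). Within the arrays with few empty values Cd14 differed by -0.26. Among those with many it differed by -1.43, where Nkx6.1 1 is the only Nkx6.1 array. Without Nkx6.1 1 the Cd14 difference over the remaining arrays was 0.08. The Ptprc differences were 0.49 and 0.66 in the set-blocked fit. Those of Mrc1 were -0.66, of opposite sign, and 0.57, with limma adjusted p = 0.988 for each probe of both genes. Groups did not overlap for 0 of the 9 probes, against 7.73% of all probes tested.

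Pdx1 was compared with the same bGAL arrays, so the comparisons with bGAL share their controls. C1qb and Tyrobp again had the lowest p values, and neither passed. Limma called 0 of 9 marker probes, against 0.546% of all probes, and 2 of 9 had an unadjusted p under 0.05, against 11.9%. C1qb differed by -1.39 (SE 0.421, adjusted p = 0.218) and Tyrobp differed by -0.99 (SE 0.286, adjusted p = 0.188). These were also the 2 probes with no overlap between groups; the share over all tested probes was 19.5%. Each gave the smallest exact permutation p that 56 splits allow, 0.0179, which restates the lack of overlap. The splits also take no account of the array set.

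In the set-blocked fit Tyrobp differed by -0.42 between Pdx1 and bGAL (limma adjusted p = 0.999). C1qb differed there by -0.51, an estimate that again rests on bGAL 4 alone. Without Nkx6.1 2, which enters through the shared variance, the C1qb difference from Pdx1 to bGAL stayed at -1.39 and passed (limma adjusted p = 0.0360). With array weights C1qa, C1qb and Tyrobp passed between Pdx1 and bGAL (limma adjusted p = 0.0419, 0.00423 and 0.0181), where 1673 of all 17965 probes passed. C1qa differed by -2.22 (SE 1.07, adjusted p = 0.440), by 0.18 with the block and by -1.43 without bGAL 1. Csf1r differed by -0.19 (adjusted p = 0.924). Ptprc differed by -0.60 and 0.33, Cd14 by -0.08, and Mrc1 by 0.49 and -0.37, with limma adjusted p values of 0.825 to 0.965. In the set-blocked fit Csf1r (0.51) and both Mrc1 probes (-1.17 and 0.38) had the opposite sign, and Ptprc differed by -0.17 and 0.86. Cd14 again lay further from 0, at -0.90 (SE 0.371, unadjusted p = 0.0324), and like these it did not pass (limma adjusted p = 0.999). Through the set term this Cd14 value also draws on Nkx6.1 1. Within the arrays with few empty values Cd14 differed by -0.43, from 3 Pdx1 arrays and bGAL 4. The median over the 7 genes was -0.19, against -0.10 over all probes, and it was -0.42 in the set-blocked fit.

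**Figure D2:**
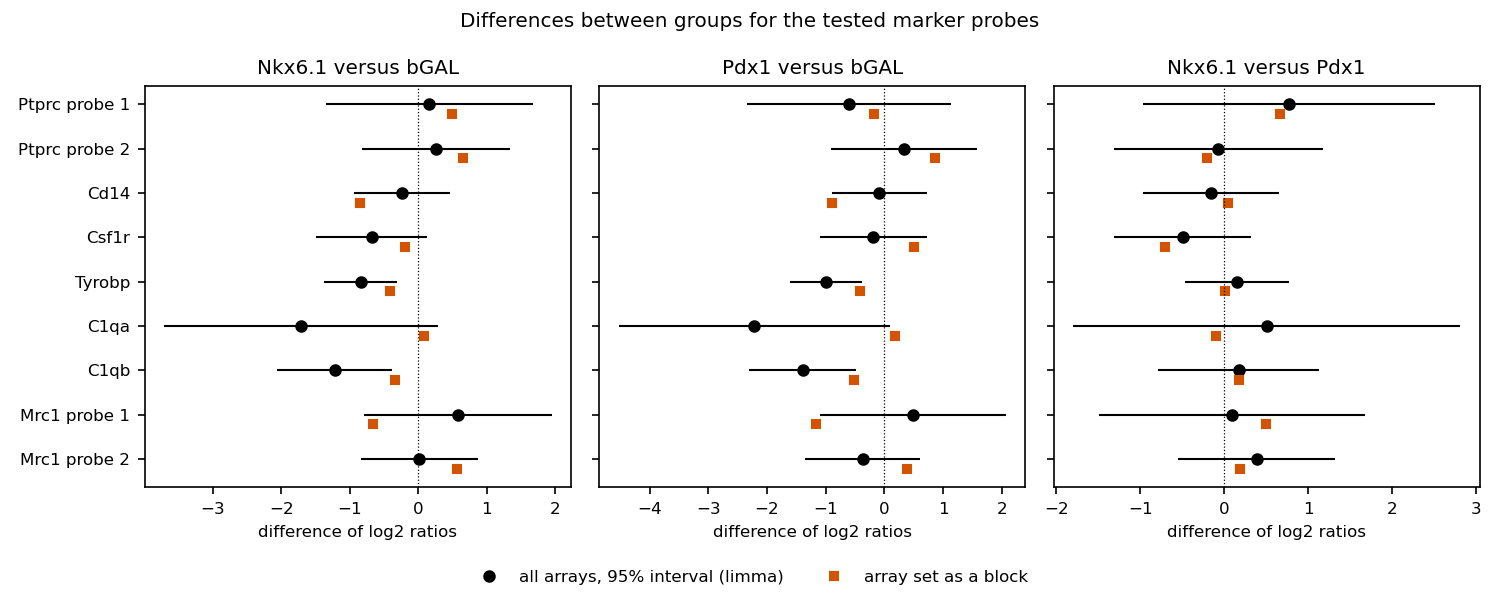
Difference of mean log2 ratios for the 9 tested marker probes in each comparison, first-named group minus second. Circles and bars are limma estimates over all 13 arrays with 95% intervals, squares are estimates in the set-blocked fit; in both comparisons with bGAL the squares of Tyrobp, C1qa and C1qb lie closer to 0 than the circles, while those of Cd14 and Ptprc Rn30000541 lie further from 0 and those of Mrc1 Rn30016785 lie on its other side.

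Nkx6.1 and Pdx1 can be compared with each other within the arrays that have few empty values, where 4 Nkx6.1 and 3 Pdx1 arrays lie. Over all arrays limma called 0 of 9 marker probes, against 0.217% of all probes, with 0 of 9 at an unadjusted p under 0.05, against 6.85%. The adjusted p values ran from 0.775 to 0.979. The differences were 0.77 and -0.07 for Ptprc, -0.15 for Cd14, 0.15 for Tyrobp, 0.51 for C1qa, 0.18 for C1qb and 0.09 and 0.39 for Mrc1.

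Csf1r was the 1 tested marker probe whose Nkx6.1 and Pdx1 values kept apart within those arrays, where 14.2% of probes did. It differed by -0.77 (95% interval -1.30 to -0.24), with all 4 Nkx6.1 arrays below all 3 Pdx1 arrays. An exact permutation test over the 35 possible splits returned p = 0.0286, its lower limit, which restates that the values kept apart. Limma over all probes of these arrays did not pass (adjusted p = 0.494), with 0.138% of probes called there. Over all 13 arrays the difference was -0.50 (limma adjusted p = 0.775), with Nkx6.1 1 at -0.00562. Tyrobp and C1qa differed within the same arrays by -0.07 (-0.58 to 0.44) and -0.20 (-0.70 to 0.31), and Aif1, measured on these arrays alone, by 0.31 (-0.26 to 0.89).

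Beyond the markers, 14 lists of other myeloid, lymphoid and islet cell genes held 260 genes, of which 162 were tested. Limma called 0 of them between Nkx6.1 and bGAL (33 at an unadjusted p under 0.05, where 14.4% of all probes had one) and 0 between Nkx6.1 and Pdx1 (14, against 6.85% of all probes). A gene counted if any of its probes did, so the shares of single probes are not a like measure for genes with several. Between Pdx1 and bGAL, 25 had an unadjusted p under 0.05, against 11.9% of all probes, and 1 passed after adjustment, against 0.546%, which is near that background. It was Lbp, which encodes the lipopolysaccharide-binding protein that loads Cd14. Its log2 ratio was -0.04, -0.89, -1.01 and -1.42 on bGAL 1, 2, 4 and 5, between -1.44 and -1.13 on Nkx6.1 2 to 5, and -2.91, -2.17 and -2.90 on Pdx1 1 to 3. All Pdx1 arrays lay below all others with a value. Lbp fell by 1.82 on the log2 scale under Pdx1 (SE 0.333, limma adjusted p = 0.0412). In the set-blocked fit the difference was -1.65 and did not pass (adjusted p = 0.786), nor did it without bGAL 1 (-1.55, adjusted p = 0.0704). Over all alternatives the adjusted p of Lbp ran from 0.00235 to 0.786.

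Among 19 other macrophage and monocyte genes tested the median difference from bGAL was -0.15 under Nkx6.1 and -0.27 under Pdx1. Of the 19, 6 lay above bGAL under Nkx6.1 and 5 under Pdx1. On the arrays with few empty values, 10 and 9 of 22 lay above it, with a median of -0.09 under each factor. Adgre1 and Ctss had the 2 smallest p values under Nkx6.1, and Lst1 and Adgre1 under Pdx1. Adgre1, the F4/80 antigen of mouse macrophages, differed by -1.09 under Nkx6.1 and by -1.11 under Pdx1 (limma adjusted p = 0.208 and 0.330). Its differences were -0.46 and -0.27 in the set-blocked fit, and -0.22 and -0.08 on the arrays with few empty values. Ctss, a lysosomal protease of antigen-presenting cells, differed by -1.09 under Nkx6.1 (adjusted p = 0.239). Its difference was -1.61 in the set-blocked fit, which also draws on Nkx6.1 1, and -0.55 on the arrays with few empty values. Lst1 differed by -1.55 under Pdx1 (adjusted p = 0.155) and by -1.33 in the set-blocked fit. Of 18 pan-leukocyte genes, 9 lay above and 9 below bGAL under each factor, with medians of 0.21 under Nkx6.1 and -0.12 under Pdx1. The median of the 7 markers under Nkx6.1 was -0.68, and the difference between the lists was not tested.

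Of the 7 class II antigen presentation genes tested, 0 passed against bGAL, and their median differences were -0.63 under Nkx6.1 and -0.57 under Pdx1. RT1-Db1, a class II beta chain, differed by -2.13 and -1.72 (limma adjusted p = 0.0904 and 0.233), and by -0.69 and -0.28 in the set-blocked fit. RT1-Da, a class II alpha chain, differed by -1.63 under Nkx6.1 (adjusted p = 0.158). Its difference was -1.82 in the set-blocked fit, which also draws on Nkx6.1 1, and -0.76 on the arrays with few empty values. Cd74, the invariant chain, differed by -0.77 under Pdx1 (adjusted p = 0.537). Its difference was -0.84 in the set-blocked fit and -0.69 on the arrays with few empty values. Within the arrays with few empty values, the list medians were -0.12 and -0.03. T and NK, B, and neutrophil and mast cell genes had medians of 0.05, 0.46 and -0.20 under Nkx6.1 and -0.03, 0.28 and 0.05 under Pdx1. On the arrays with few empty values they were 0.28, 0.45 and 0.03 under Nkx6.1 and -0.07, -0.24 and 0.06 under Pdx1, so the sign turned for neutrophil and mast cell genes under Nkx6.1 and for B cell genes under Pdx1.

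Of 11 growth factor and chemokine genes for macrophages, 0 passed between Nkx6.1 and Pdx1 over all arrays. Their median difference was 0.97, with 10 above 0, against 0.02 over all probes. Ccl3, a chemokine for monocytes, differed by 1.85 (limma adjusted p = 0.265) and Ccl20 by 2.73 (adjusted p = 0.456). The Ccl20 difference passed in the set-blocked fit (2.73, adjusted p = 0.0155), which called 0.245% of probes. All its Nkx6.1 and Pdx1 values came from the arrays with few empty values, and in the fit of those arrays alone it did not pass (2.73, adjusted p = 0.120). Against bGAL, Cx3cl1, the ligand of the fractalkine receptor on monocytes, differed by 2.68 under Nkx6.1 (adjusted p = 0.0512), by 1.73 in the set-blocked fit (adjusted p = 0.570) and by 1.46 on the arrays with few empty values. Ccl2, a monocyte chemokine, differed by 1.38 (adjusted p = 0.186) and by 2.04 in the set-blocked fit (adjusted p = 0.218). Tlr2, a receptor for bacterial lipoproteins, is from another list, that of receptor partners and signalling. It differed by 1.06 under Nkx6.1 against bGAL (limma adjusted p = 0.0820) and by 0.85 in the set-blocked fit. Of the 19 genes tested in its list, 10 lay above and 9 below bGAL under Nkx6.1, with a median of 0.04. On the arrays with few empty values that median was -0.08 over 21 genes.

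Markers of other cell types were set beside these lists. Against bGAL under Nkx6.1 the medians were -0.09 for endothelial, -0.27 for fibroblast and stellate, 0.53 for acinar, -0.04 for duct and 0.33 for beta cell genes. Under Pdx1 they were -0.48, -0.26, 0.09, -0.42 and 0.08. On the arrays with few empty values the medians, in the same order, were 0.09, -0.08, 0.34, 0.17 and 0.08 under Nkx6.1 and -0.20, -0.28, 0.33, -0.19 and -0.05 under Pdx1. The sign thus turned for endothelial and duct genes under Nkx6.1 and for beta cell genes under Pdx1. The part of cell makeup in the marker differences was not tested.

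**Figure D3:**
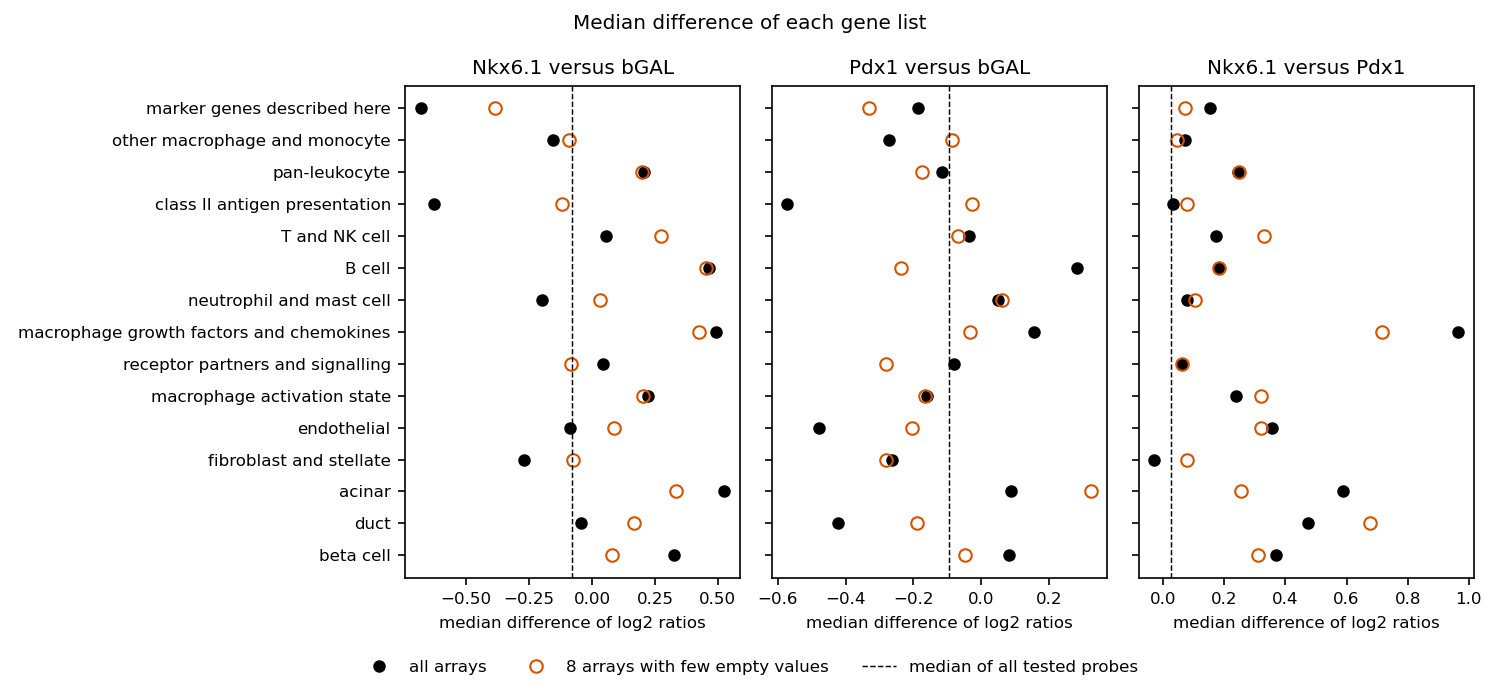
Median difference of log2 ratios over the tested genes of each list, for the 3 comparisons. Filled circles use all 13 arrays, open circles the 8 arrays with few empty values, and the dashed line is the median of all tested probes; the class II list, at -0.63 and -0.57 against bGAL over all arrays, lies at -0.12 and -0.03 over the 8 arrays.

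The pattern of the markers across arrays was set beside that of all other genes. Averaged over the 5 marker genes with a value on every array, each centred on its mean, the pattern was mostly that of C1qa (r = 0.877 over 13 arrays) and less that of Tyrobp (0.643), Ptprc (0.339), Cd14 (-0.158) and Mrc1 (-0.273). Among 6053 probes with a symbol and a value on every array, the closest were C8h11orf54 (r = 0.937), Sytl4 (0.920), Fcgbpl1 (0.907), Slc7a4 (0.906), Papss2 (0.895) and Shroom3 (0.892). Without Nkx6.1 2 these stood at 0.940, 0.943, 0.907, 0.907, 0.910 and 0.891. Within the 8 arrays with few empty values they stood at 0.481, 0.112, 0.548, 0.0487, 0.409 and 0.387. The part of the array set in this likeness was not tested, and the points share the reference pool and the normalization.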

How the data were processed

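Spotted 2-colour oligonucleotide arrays measured islet RNA against a reference pool. The authors deposited 1 log2 ratio per probe and array. No label states the log base, centring or direction. Medians of -0.06 to 0.00 and the Ins1 and Alb values above fit a centred log2 ratio of islet over reference. Empty values were kept empty. Of 26984 probes, 22 control spots were left out; 15807 had 1 gene symbol in the platform annotation, 0 had several and 11155 had none. Symbols were updated for 3707 probes and 51 could not be matched.

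A 3-group model was fitted with limma 3.58.1 in R 4.3.3 to the 17965 probes that had 2 or more values per group, with Benjamini-Hochberg adjustment and a threshold of 0.05. Single probes also had two-sided exact permutation tests of the difference in means. Intervals are limma's, and the number of arrays limits their precision. The model was also run on simulated data that held no difference between the array sets, so that feature was not tested. Alternatives were other normalizations, filters, array weights, blocks and left-out arrays. All members are named. Of each other list, genes past the threshold or else the 2 with the smallest p in a comparison could be named, and by likeness the 6 genes with the highest r. The members and lists were chosen with earlier results of these data known.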

Additional observations from a re-analysis of the deposited data

Results flagged for a closer look

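In 4 of 18 groups of values, 1 array lay far from the others of its group by Dixon's criterion, which flags about 1 in 20 groups by chance. Aif1 stood at 0.44 on Nkx6.1 2, against -0.10 to -0.00921 on the other Nkx6.1 arrays with a value. C1qa stood at 5.97 on Nkx6.1 1, against 2.33 to 2.78. C1qb stood at 2.29 on bGAL 4, against 3.23 to 3.61, and at 3.22 on Nkx6.1 2, against 1.34 to 1.64. Nkx6.1 1 and bGAL 4 are the arrays of their groups that belong to the other array set, and the part of the set was not tested.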

How the results depend on the processing

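Of 674 alternative fits of 27 marker differences, 601 kept their direction and side of the threshold, 65 reversed and 8 passed. Some fits, such as those with a variance trend or without an array of the group not compared, cannot change a difference. The 601 is therefore no measure of stability. Probes past the threshold between Nkx6.1 and bGAL (115) numbered 46 with quantile and 49 with scale normalization, 1068 with array weights, 26 with these groups only, 13 with the array set as a block, 0 within either array set and 39 to 595 with 1 array left out. Between Pdx1 and bGAL (98) they numbered 1673 with weights, 21 with the set block, 3 on arrays with few empty values and 16 to 432 with 1 array left out. Between Nkx6.1 and Pdx1 (39) they numbered 96, 107 and 636 with quantile, scale and weights, and 14 to 81. The share of higher calls was 64.3%, 80.6% and 10.3%, against 39.9%, 36.5% and 48.7% with weights, 52.2%, 70.0% and 17.7% with quantile and 53.1%, 62.2% and 29.0% with scale normalization. The causes were not tested.

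With the replicate block these counts were 21, 22 and 19. Of 11 same-numbered pairs 2 correlated above 0.1 (-0.239 to 0.475), so the numbers were not taken to pair arrays. Under that block Mrc1 (Rn30024310) turned to -0.0716 against bGAL for Nkx6.1, Cd14 to 0.12 for Pdx1, and between the factors Ptprc (Rn30000541) to 0.0491 and Mrc1 (Rn30016785) to -0.0245. The Pdx1 marker median was -0.57.

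Array weights called 2 of 9 marker probes for Nkx6.1 against bGAL (C1qb -1.68, Tyrobp -1.01), against 1068 of all 17965 probes. For Pdx1 they called 3 of 9 (C1qa -2.60, C1qb -1.49, Tyrobp -1.03), against 1673 of 17965. Leaving out 1 array called 0 to 1 of 9 in each comparison with bGAL. Of all probes tested it called 39 to 595 for Nkx6.1 and 16 to 432 for Pdx1. The marker median for Nkx6.1 against bGAL was -0.24 with complete probes and 0.10 on arrays with many empty values. For Pdx1 it was -0.58 with scale normalization and -0.60 with the most complete probe. Between the factors it ran from -0.25 to 0.29 with 1 array left out.

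Reversals for Nkx6.1 against bGAL were Ptprc R001662_01 (quantile -0.32, scale -0.18, few-empty arrays -1.29) and Rn30000541 (-0.24, -0.34, -0.12), Csf1r (many-empty arrays 0.22), C1qa (set block 0.0887, many-empty 0.61), Mrc1 Rn30016785 (-0.66, -2.14) and Rn30024310 (weights -0.24). For Pdx1 they were Ptprc Rn30000541 (quantile -0.37, scale -1.01), Csf1r (set block 0.51, few-empty 0.23), C1qa (set block 0.18), Mrc1 Rn30016785 (quantile -0.36, scale -0.51, set block -1.17) and Rn30024310 (set block 0.38, few-empty 0.32). Between the factors they were Ptprc Rn30000541 (quantile 0.13, scale 0.67), Cd14 (0.10, 0.18, weights 0.0466, set block 0.0505, few-empty 0.17), Tyrobp (few-empty -0.0683), C1qa (-0.0493, -0.26, -0.0199, -0.0926, -0.20) and C1qb (quantile -0.0538, scale -0.22, weights -0.18).

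With 1 array left out, ranges that crossed 0 were, for Nkx6.1 against bGAL, Ptprc -0.30 to 0.77 and -0.0219 to 0.64, Cd14 -0.38 to 0.0841 and Mrc1 Rn30024310 -0.22 to 0.37. For Pdx1 they were Cd14 -0.20 to 0.14 and Csf1r -0.40 to 0.0109. Between the factors they were Ptprc Rn30000541 -0.36 to 0.18, Cd14 -0.38 to 0.17, Tyrobp -0.0683 to 0.29, C1qa -0.20 to 0.71, C1qb -0.25 to 0.38 and Mrc1 Rn30016785 -0.32 to 0.80.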
